A study of Mus musculus with 26 samples.

Results

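Conventional dendritic cells (DCs) of the mouse spleen fall into a CD8a subset and a CD11b subset, and the wild-type (WT) libraries of both were compared here: CD8a libraries 1 and 2 against CD11b libraries 5 and 6, numbered as in their titles. They are 4 of the 26 RNA-seq libraries of the series and were chosen by genotype, organ and sort label, with no measured value. The series compares WT littermates with mice labelled mTOR{delta}APC (KO; APC, antigen-presenting cell) across 10 groups of sorted cells. The 4 WT libraries came from spleens at steady state, as did 2 KO CD8a libraries (3 and 4) and 2 KO CD11b libraries (7 and 8), whose values are set beside the WT values below. The promoter that drives the deletion, the age, strain and sex of the mice and any pooling of animals are not given in the sources used here. Nothing in the labels says that libraries of a group came from separate animals. The p-values therefore rest on the spread between libraries of the same group, taken over all 10 groups. That spread may be technical in WT spleen. Within each subset the 2 KO libraries differed in sex-linked transcripts, as given at the end.

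The CD8a subset, also called conventional DC type 1 (cDC1), depends on the transcription factors IRF8, BATF3 and ID2. It senses dead cells through CLEC9A, reads double-stranded RNA and parasite profilin in endosomes, and presents the proteins of engulfed cells on MHC class I to CD8 T cells, a process called cross-presentation. The CD11b subset, conventional DC type 2 (cDC2), depends on IRF4, RELB and, for its splenic ESAM-positive part, NOTCH2 signalling. It carries the regulatory receptor SIRPA and C-type lectins of the DCIR family and is known mainly for priming CD4 T cells through MHC class II.

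Cd8a encodes the chain by which the first subset was sorted, and Itgam encodes CD11b. Cd8a, on chromosome 6 at positions 71373427 to 71379173 (GRCm38/mm10, GENCODE M21, protein coding), held 6345 and 6119 in the CD8a libraries and 18.8 and 37.2 in the CD11b libraries. Itgam, on chromosome 7 at positions 128062640 to 128118491, held 83.1 and 82.1 in the CD8a libraries and 1585 and 1867 in the CD11b libraries. All values are the authors' DESeq2-normalized read counts, here called normalized counts. Both sort markers matched their labels, which is a check of the labels and not a result. Mtor itself held 384 and 427 against 396 and 355 normalized counts (CD8a against CD11b) in WT libraries and 40 and 68.5 against 63 and 82.6 in KO libraries.

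The 4 WT libraries held 8482049 to 10139210 recovered reads each and 13486 to 13802 genes with a count above 0. Across the 11683 genes with a normalized count of at least 10 in at least 2 of the 4 libraries, log2(normalized count + 1) correlated at 0.947 between the CD8a libraries and 0.973 between the CD11b libraries. The correlation between a CD8a and a CD11b library was 0.860 to 0.869; these are correlations across genes, which are not independent replicates. The CD8a pair therefore agreed less well than the CD11b pair, with a median absolute log2 difference of 0.277 against 0.226.

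Transcripts of red pulp macrophages, the iron-recycling macrophages of the spleen, differed between these libraries and are given first because several gene groups below contain them. The 26 tested markers of that cell type summed to 50289 and 84895 in the CD8a libraries and 24110.5 and 28899 in the CD11b libraries. The corresponding sums were 11170.1 and 11091 in KO CD8a libraries 3 and 4 and 37476 and 35110.4 in KO CD11b libraries 7 and 8, so the order of the subsets was opposite in KO spleen. Of the 26, 22 were called higher in WT CD8a cells and 2 (Emr1 and Sirpa) lower, with a median log2 difference of 2.76. In KO spleen 2 were called higher and 18 lower, with a median of -1.65. No marker of the list was at 0 in a WT spleen library. Spic, the transcription factor that defines red pulp macrophages, held 1460.3 and 1989.9 in the CD8a libraries and 228 and 376 in the CD11b libraries. It held 55.8 and 63.6 against 369.8 and 317 in KO libraries. Vcam1, an adhesion molecule of these macrophages, held 7009.6 and 12464 against 766 and 946 in WT and 1058 and 799.8 against 1226 and 1268 in KO libraries, and Hmox1, which degrades heme, held 5364 and 8639.6 against 525 and 848 in WT and 494 and 347 against 992 and 779 in KO. CD8a library 2 was above CD8a library 1 for each of these 3 genes, and both lay above both CD11b libraries. In bulk samples fewer cells of a type and less RNA per cell cannot be told apart, and the part of these transcripts in the results below was not tested.

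Differences were coded CD8a minus CD11b, on the log2(normalized count + 1) scale, and a gene was called when its Benjamini-Hochberg adjusted p from limma was under 0.05. By that rule 3018 of 11683 genes (25.8%) were called, 1600 (13.7%) higher in CD8a cells and 1418 (12.1%) lower. These shares are the background against which the gene groups below are read. Among called genes, 878 were more than 2-fold higher and 750 more than 2-fold lower, and 105 and 72 differed more than 16-fold. The median difference of all genes tested was -0.01. With 2 libraries a group the groups failed to overlap at 7073 genes (60.5%), and an exact permutation test of a single gene could not go below p = 0.333, so the calls rest on the spread that limma estimated over all 26 libraries. Genes named below as not called were mostly chosen after their values were seen.

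**Figure D1:**
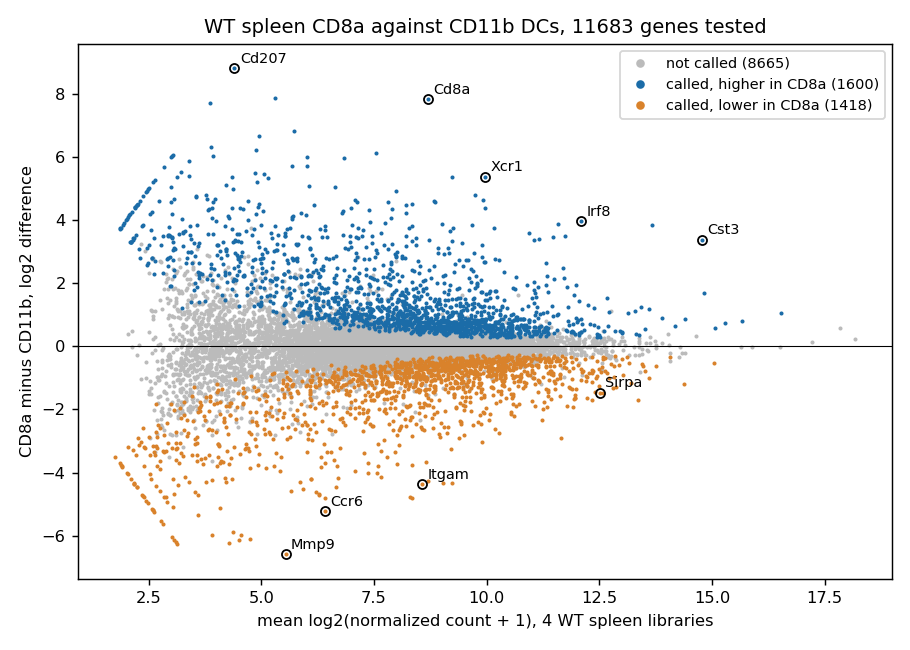
Each point is one of the 11683 genes tested, at its mean log2(normalized count + 1) over the 4 WT spleen libraries (horizontal axis) and its CD8a minus CD11b log2 difference (vertical axis). Coloured points are the 1600 genes called higher and the 1418 called lower, which spread to both sides of a median of -0.01.

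The markers by which the field recognizes cDC1 were almost all higher in CD8a cells: 27 of 28 tested were called higher and none lower, and their median difference was 3.79. They were chosen because they mark this subset, so their direction was fixed by the choice. The only marker not called was Tbc1d8, a gene of a Rab GTPase-activating protein family, at 0.42 ± 0.20 (SE; adjusted p = 0.12); edgeR called it at 0.44 (adjusted p = 0.0388) and DESeq2 at 0.43 (adjusted p = 0.0354). In KO spleen 27 of 28 were called higher, against a background of 11.5% of all genes there.

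Xcr1, the receptor by which cross-presenting DCs meet T cells that secrete XCL1, is on chromosome 9 at positions 123852315 to 123862029. It held 6363 and 6377 in the CD8a libraries and 199 and 118 in the CD11b libraries, a log2 difference of 5.36 ± 0.71 (SE; adjusted p = 3.91e-06). The CD8a libraries were nearly equal and far above both CD11b libraries. Clec9a, the lectin that binds actin of dead cells, held 5036 and 4545 in the CD8a libraries and 229 and 162 in the CD11b libraries, a difference of 4.63 ± 0.35. Irf8, the transcription factor on which cDC1 depend, is on chromosome 8 at positions 120736358 to 120756694 and held 16216 and 18506 in the CD8a libraries and 1516 and 818 in the CD11b libraries, a difference of 3.96 ± 0.20 (adjusted p = 1.04e-12). Neither gene overlapped between the groups. Id2, an inhibitor of E proteins, differed by 1.51 ± 0.20, and Wdfy4, which is required for cross-presentation, by 1.10 ± 0.25; Id2 held 11438 and 10489 against 3864 and 3801 and Wdfy4 14632 and 14764 against 7466 and 6269 (CD8a against CD11b), so CD11b cells carried both as well.

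Batf3, the transcription factor after which cDC1 deficiency is best known, separated the subsets far less. It held 849 and 953 in the CD8a libraries and 538 and 666 in the CD11b libraries, a difference of 0.59 ± 0.20 (adjusted p = 0.0292). The groups did not overlap, but the call was lost without CD8a library 1, at 0.67 (adjusted p = 0.0549), without CD8a library 2, at 0.50 (adjusted p = 0.161), and without CD11b library 5, at 0.43 (adjusted p = 0.241). In KO spleen the difference was 0.64 (limma adjusted p = 0.0177). Itgae, the alpha chain of CD103, held 547 and 493 in the CD8a libraries and 23.3 and 1.69 in the CD11b libraries, a difference of 6.01 ± 0.67. Its level in CD8a cells was 3745 and 3170 in the KO libraries, above both WT CD8a libraries, while the subset difference in KO was 6.36.

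**Figure D2:**
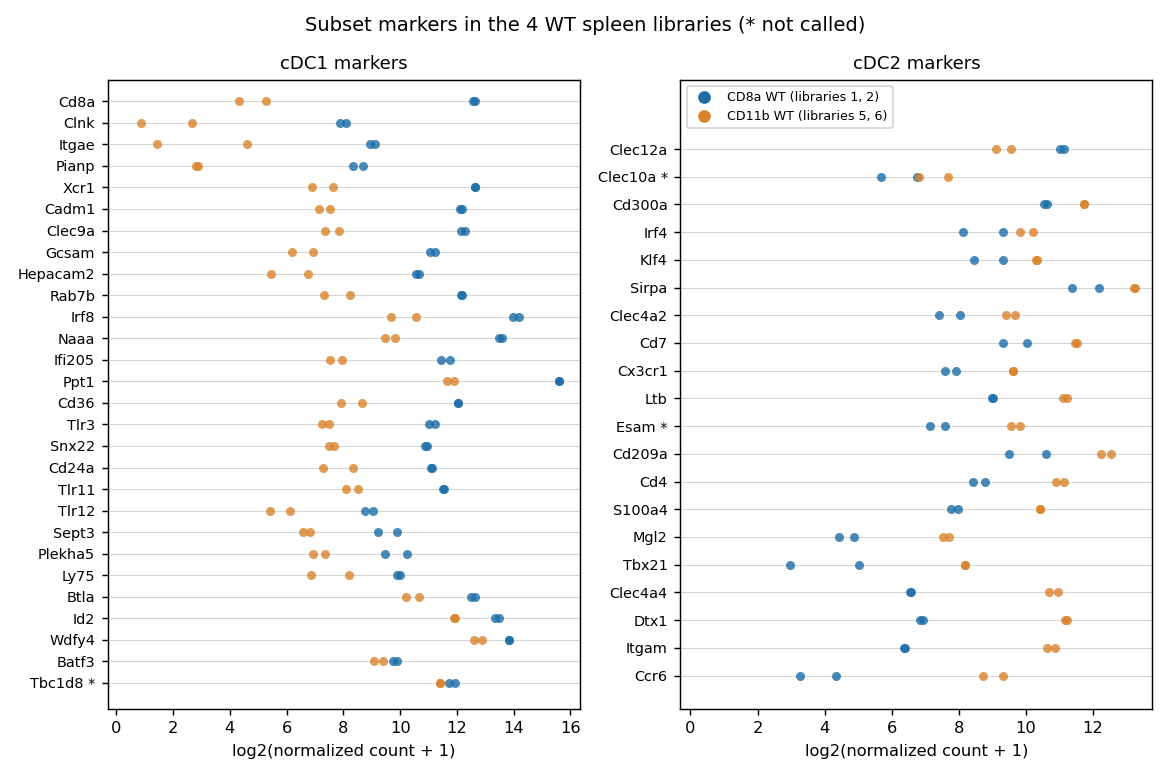
log2(normalized count + 1) of the cDC1 markers (left) and cDC2 markers (right) in each WT spleen library, 1 point a library, blue for CD8a and orange for CD11b; an asterisk marks a gene that was not called. Most markers lie wholly on the side of their subset, Clec12a lies on the opposite side, and Batf3 and Tbc1d8 lie close together.

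Several of the largest differences were those of surface and secreted proteins and enzymes with little or no transcript in CD11b cells. Cd207, encoding langerin, the lectin of Birbeck granules, held 565 and 349.7 in the CD8a libraries and 0 and 0 in the CD11b libraries; a CD11b library at 0 is counted at a floor of 3 reads, which makes Cd207 at least 175-fold higher in CD8a cells. Pcsk5, a proprotein convertase, held 196 and 221 in the CD8a libraries and 0 and 0 in the CD11b libraries, at least 79.7-fold higher. Dkk3, a secreted glycoprotein of the Dickkopf family, held 504 and 727 in the CD8a libraries and 0.897 and 2.54 in the CD11b libraries, a difference of 7.87 ± 1.11. All 3 were at or near 0 in both CD11b libraries. Ptgis, which makes prostacyclin, differed by 6.83 ± 1.12, and Ttc39a by 6.12 ± 0.59, from 1511 and 1604 against 26.9 and 16.9 normalized counts (CD8a against CD11b). Cst3, the cathepsin inhibitor cystatin C, was the called gene with the largest difference of mean normalized count and held 85007 and 95638 in the CD8a libraries and 8848 and 8580.0 in the CD11b libraries (3.37 ± 0.11). Ppt1, a lysosomal thioesterase, followed at 49645 and 49162 in the CD8a libraries and 3795 and 3192 in the CD11b libraries (3.83 ± 0.15). Next by that measure were Psap, the precursor of lysosomal saposins (1.67 ± 0.18), and Tmsb4x, an actin-binding thymosin (0.80 ± 0.14). Lars2, a mitochondrial leucyl-tRNA synthetase (0.75 ± 0.16), and Irf8 came after them. In KO spleen Lars2 was not called, at a difference of 0.01 (37060 and 35960 against 36481 and 35903, CD8a against CD11b). The others of these 6 genes were called higher there. The WT minus KO difference of Lars2, at 0.73 ± 0.23, was not called. There were 32 called genes at 0 in both CD11b libraries and 28 at 0 in both CD8a libraries. Such a gene passed the count minimum only through the other subset, so its direction was fixed by that minimum and these counts are a description.

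In the opposite direction, Mmp9, a gelatinase that cuts matrix collagen, held 3.43 and 4.05 in the CD8a libraries and 432 and 479.9 in the CD11b libraries, a difference of -6.59 ± 0.97 (adjusted p = 1.64e-05). Il1rn, the secreted antagonist of the interleukin 1 receptor, held 2.57 and 1.01 in the CD8a libraries and 144 and 245 in the CD11b libraries, a difference of -6.14 ± 0.37 (adjusted p = 2.35e-11). Both were close to 0 in both CD8a libraries. S1pr5, a receptor for sphingosine 1-phosphate, was at 0 in both CD8a libraries and at 63.7 and 88.9 in the CD11b libraries, at least 27.2-fold lower in CD8a cells. Trem1, an activating receptor of myeloid cells, and Mrc2, a collagen receptor, were also at 0 in both CD8a libraries, at least 26.8-fold and 25.4-fold lower. The largest difference of mean normalized count in this direction was that of Ptprc, the tyrosine phosphatase CD45, at 14958 and 13353 in the CD8a libraries and 32556 and 32034 in the CD11b libraries (-1.19 ± 0.12).

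The windows of 250 bases before the transcription start of 3 such genes are shown because Cd8a defines the sort, and because Cd207 and Il1rn were among the most different genes in each direction. They come from RefSeq (GRCm38.p6) and are written 5′ to 3′ on the gene's strand. Capitals mark matches on either strand to 3 motifs: the composite element of ETS and IRF factors (GGAA and GAAA with any 2 bases between them), TGANTCA, an AP-1 element, and GTGGGAA, an RBPJ element; overlapping matches were merged. The windows span chr6:71373177-71373426, chr6:83677858-83678107 and chr2:24336610-24336859.
Cd8a: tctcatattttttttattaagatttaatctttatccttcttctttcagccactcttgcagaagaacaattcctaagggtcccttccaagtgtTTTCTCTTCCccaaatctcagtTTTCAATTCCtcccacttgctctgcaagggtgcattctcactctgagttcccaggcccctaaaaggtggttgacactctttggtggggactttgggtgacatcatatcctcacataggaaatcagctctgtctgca
Cd207: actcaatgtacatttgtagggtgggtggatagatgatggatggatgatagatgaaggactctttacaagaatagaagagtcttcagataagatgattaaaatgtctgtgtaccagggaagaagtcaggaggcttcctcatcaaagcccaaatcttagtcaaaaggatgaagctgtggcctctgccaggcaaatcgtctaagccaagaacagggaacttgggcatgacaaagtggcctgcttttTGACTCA
Il1rn: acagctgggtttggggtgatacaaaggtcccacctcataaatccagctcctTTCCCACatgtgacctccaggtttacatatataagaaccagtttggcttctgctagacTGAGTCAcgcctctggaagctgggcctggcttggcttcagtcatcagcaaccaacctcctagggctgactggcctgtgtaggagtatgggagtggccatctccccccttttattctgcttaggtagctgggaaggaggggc
The Cd8a window holds 2 ETS-IRF matches, at 158 and 136 bases before the start. The Cd207 window holds TGANTCA at 7 bases before the start. The window shown for Il1rn, higher in the other subset, holds TGANTCA at 141 and GTGGGAA at 199. Il1rn has other RefSeq starts, with windows at chr2:24345041-24345290 and chr2:24345121-24345370, which hold none of these motifs. The shares that follow were counted over longer windows, which also take in bases after the start. The ETS-IRF motif was found in 2.12% of the windows of genes called higher, 2.93% of those of genes called lower and 2.45% of all windows of tested genes. TGANTCA was found in 5.03%, 5.8% and 4.91%, and GTGGGAA in 6.06%, 6.55% and 6.13%. A match is a description of these letters and not a binding site.

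Markers of cDC2 were lower in CD8a cells for 17 of 20 tested, with a median difference of -2.24; the list again fixed the direction. Clec4a4, which encodes the 33D1 antigen (DCIR2) of this subset, is on chromosome 6 at positions 122990367 to 123024105. It held 94.2 and 93.3 in the CD8a libraries and 1659 and 1982 in the CD11b libraries, a difference of -4.26 ± 0.42 (adjusted p = 5.31e-08). Ccr6, the receptor for CCL20, held 8.57 and 19.3 in the CD8a libraries and 421 and 633 in the CD11b libraries, a difference of -5.22 ± 0.68. For both genes the groups were far apart. Sirpa, the receptor for the don't-eat-me signal CD47, held 2646 and 4620.4 in the CD8a libraries and 9622 and 9781 in the CD11b libraries, a difference of -1.47 ± 0.17, and 854 and 1084 against 14023 and 13671 in KO libraries, a difference of -3.84. Sirpa is also a macrophage transcript, and it was higher in both WT CD8a libraries than in both KO CD8a libraries, as the red pulp list was. Cd4 differed by -2.41 ± 0.46.

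Of the other 3 members of the cDC2 list, 1 was called in the opposite direction and 2 were not called. Clec12a, an inhibitory lectin, was called higher in CD8a cells, at 2250.0 and 2081 in the CD8a libraries and 748 and 547 in the CD11b libraries (1.76 ± 0.18), and differed by 1.48 in KO. Esam, an adhesion molecule of Notch-dependent DCs, held 193 and 139 in the CD8a libraries and 896 and 753 in the CD11b libraries, but its difference of -2.32 ± 1.27 was not called (adjusted p = 0.198), and neither was that of Clec10a, at -1.02 ± 0.44. The groups did not overlap at Esam; its SE came from all 26 libraries, and the fit over the 8 spleen libraries alone called it at the same difference (adjusted p = 1.48e-05). edgeR also called Esam, at -2.30 (adjusted p = 0.0204), and DESeq2 did not, at -2.32 (adjusted p = 0.204). Clec10a was called without CD8a library 1, at -1.55 (adjusted p = 0.0364). Irf4, a transcription factor needed for cDC2 function, held 642 and 277 in the CD8a libraries and 1181 and 903 in the CD11b libraries, a difference of -1.29 ± 0.41 (adjusted p = 0.0214). CD8a library 1 was well above library 2, and the call was lost without library 2, at -0.68 (adjusted p = 0.33), and without CD11b library 5, at -1.10 (adjusted p = 0.149).

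Genes that mark conventional DCs as a whole were mostly not called: of 16 tested, Itgax (CD11c) alone was called, at -0.67 ± 0.14, and the median difference was -0.17. Zbtb46, the transcription factor that distinguishes conventional DCs from other myeloid cells, differed by -0.34 ± 0.34 (adjusted p = 0.511), and Flt3, the receptor for the DC growth factor FLT3L, by 0.50 ± 0.44 (adjusted p = 0.458). A p above the threshold does not show that such genes have equal levels.

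Among 40 tested transcription factors of the DC lineage, 7 were called higher and 16 lower. The factors higher in CD8a cells included Rxra, a nuclear receptor, at 320.3 and 432 in the CD8a libraries and 77.2 and 87.2 in the CD11b libraries (2.17 ± 0.21). In KO spleen Rxra was called higher by only 0.71, at 235 and 240 against 177 and 118 (CD8a against CD11b). Its WT minus KO difference of 1.45 ± 0.30 was called (limma adjusted p = 0.0051), in the direction of the red pulp list. Rbpj, the DNA-binding partner of Notch, was higher at 0.60 ± 0.15, though 0.42 and not called without CD11b library 6. Without CD8a library 1 or CD11b library 6 the higher count was 4 in place of 7. Lower in CD8a cells were the NF-kB subunits Relb and Nfkb1. Relb held 1524 and 1167 in the CD8a libraries and 4667 and 4444 in the CD11b libraries, a difference of -1.77 ± 0.16 (adjusted p = 1.49e-08), and Nfkb1 held 2436 and 2217 in the CD8a libraries and 5589.8 and 5847 in the CD11b libraries, a difference of -1.30 ± 0.15. The groups did not overlap at either. Klf4, needed by part of the cDC2 lineage, differed by -1.43 ± 0.22, and Zeb2, a repressor that opposes the cDC1 fate, by -0.90 ± 0.16 in WT and -2.39 in KO. Tbx21, encoding T-bet, was chosen after its values were seen. It held 6.85 and 31.4 in the CD8a libraries and 291 and 291 in the CD11b libraries, a difference of -4.19 ± 0.96.

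Genes of the Notch pathway, through which marginal zone ligands shape splenic cDC2, did not move to one side. Of 25 tested, 9 were called higher in CD8a cells and 4 lower, with 4 higher without CD11b library 6. The receptor Notch2 held 585 and 607 in the CD8a libraries and 656 and 508 in the CD11b libraries, a difference of 0.05 ± 0.16 (adjusted p = 0.872). Its groups overlapped. The receptor Notch1 was higher in CD8a cells, at 110.5 and 65.9 in the CD8a libraries and 26 and 12.7 in the CD11b libraries (2.17 ± 0.34), and the ubiquitin ligase Dtx4 was higher too, at 2.19 ± 0.26. Dtx1, a Deltex ubiquitin ligase and a Notch target, went the other way and held 113 and 121 in the CD8a libraries and 2309 and 2375 in the CD11b libraries, a difference of -4.31 ± 1.13 (adjusted p = 0.00591). The large SE of Dtx1 again came from spread in other groups, since the WT libraries agreed closely within each subset. Maml2 and Maml3, Mastermind coactivators of the same family, were called in opposite directions, at 1.55 ± 0.26 and -1.78 ± 0.39.

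Antigen presentation on MHC class I was tested with 32 genes, of which 13 were called higher and 6 lower (median 0.30). Those called higher included genes of peptide supply, peptide loading and cross-presentation. Calr, the chaperone calreticulin of the loading complex, held 4527 and 4149 in the CD8a libraries and 1896 and 1709.7 in the CD11b libraries, a difference of 1.27 ± 0.11 (adjusted p = 1.12e-08). Pdia3, the oxidoreductase ERp57 of that complex, held 12817 and 13082 in the CD8a libraries and 5964 and 6494 in the CD11b libraries, a difference of 1.06 ± 0.14. Psme1, a subunit of the PA28 proteasome activator, differed by 0.88 ± 0.12, and Rab43, a GTPase needed for cross-presentation by CD8a DCs, by 1.23 ± 0.17. These differences were about 2-fold and none of these 4 genes overlapped between the groups. The peptide transporter Tap1 and the immunoproteasome subunits Psmb8 and Psmb9, chosen after their values were seen, differed by 0.76 ± 0.16, 0.62 ± 0.11 and 0.91 ± 0.14. Of the class I molecule itself, neither H2-K1 nor B2m was called: H2-K1, a heavy chain, differed by -0.21 ± 0.13 (adjusted p = 0.261) and B2m, the light chain, by -0.21 ± 0.20 (adjusted p = 0.484).

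The genes of the same list that were lower in CD8a cells included subunits of the NADPH oxidase, which makes superoxide in the phagosome. Cybb, its catalytic gp91phox subunit, held 1973 and 1710.1 in the CD8a libraries and 5672 and 5308 in the CD11b libraries, a difference of -1.58 ± 0.16 (adjusted p = 7.28e-08). Rac2, the GTPase of the oxidase, differed by -0.95 ± 0.16, and Syk, a kinase downstream of lectin and Fc receptors, by -0.96 ± 0.14. Lower calls also included the oxidase subunits Cyba (-0.35 ± 0.13) and Ncf1 (-0.40 ± 0.12). Both were lost without CD11b library 6, at -0.26 (adjusted p = 0.292) and -0.31 (adjusted p = 0.148), and without CD8a library 2, at -0.39 (adjusted p = 0.094) and -0.31 (adjusted p = 0.141); Cyba was also lost without library 1 or 5. All 5 of these genes were called lower in KO spleen as well.

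Among MHC class II genes, H2-Ab1, a classical beta chain and an abundant transcript of both subsets, was not called. It held 165893 and 152315 in the CD8a libraries and 139865 and 152576 in the CD11b libraries, a difference of 0.12 ± 0.18 (adjusted p = 0.686), and Cd74, the invariant chain, differed by 0.22 ± 0.20. Ciita, the transactivator of class II genes, differed by -0.15 ± 0.20. H2-Eb2, another beta chain of the E locus, was lower in CD8a cells, at 230.4 and 102 in the CD8a libraries and 1081 and 868 in the CD11b libraries (-2.65 ± 0.47), and so was H2-DMb2, a beta chain of the peptide exchanger H2-M, at -1.56 ± 0.23. H2-DMb1, its neighbouring copy and chosen after its values were seen, was called in the other direction, at 0.52 ± 0.17; it was 0.49 (adjusted p = 0.105) without CD8a library 1 and lost without any other one library too. Reads of such near-identical genes could be split by counting, so these 2 differences are uncertain. Cd9, a tetraspanin that gathers class II at the surface, was higher at 0.86 ± 0.17. In all 8 of 24 genes were called higher and 4 lower, with 4 higher and 2 lower without CD8a library 2. Ctsb, Ctsd, Ctsl and Lgmn, lysosomal proteases among the higher calls, moved with the red pulp macrophage list: Ctsd held 2568 and 4527 against 1181 and 1719 in WT (CD8a against CD11b) and 514 and 528 against 1729 and 1512 in KO libraries, and its WT difference of 1.26 ± 0.32 was 0.85 (adjusted p = 0.122) without CD8a library 2 and 0.99 (adjusted p = 0.0883) without CD11b library 5.

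**Figure D3:**
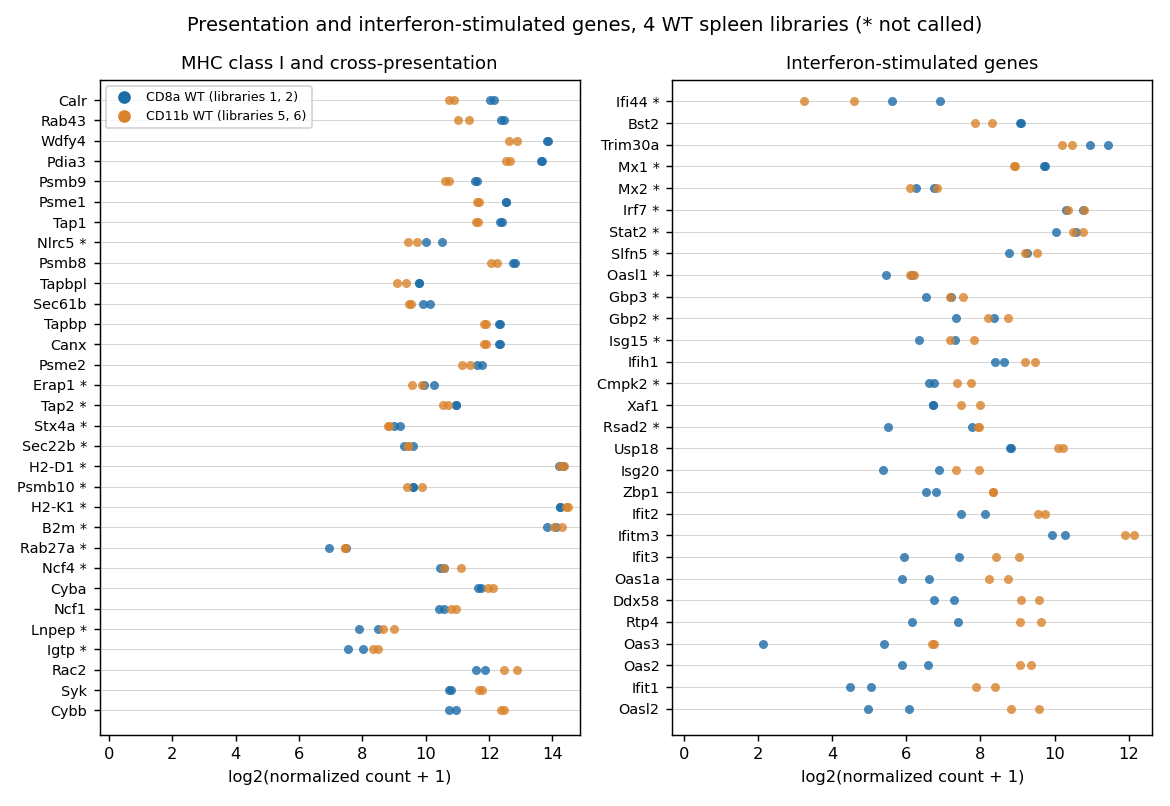
log2(normalized count + 1) in each WT spleen library, 1 point a library, blue for CD8a and orange for CD11b, for the MHC class I and cross-presentation list (left) and the interferon-stimulated list (right), ordered by the CD8a minus CD11b difference, with 1 member of each list not plotted; an asterisk marks a gene that was not called. Blue points lie to the right at Calr, Rab43 and Pdia3 and to the left at Cybb, Syk and Rac2, and 15 interferon-stimulated genes were called lower against 2 called higher.

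Sensors of microbial ligands were more often lower than higher in CD8a cells: 15 of 39 were called lower and 6 higher. Tlr3, the endosomal sensor of double-stranded RNA, held 2063 and 2384 in the CD8a libraries and 179 and 152 in the CD11b libraries, a difference of 3.74 ± 0.30 (adjusted p = 2.03e-09). Tlr11 and Tlr12, the receptors for Toxoplasma profilin, were chosen after their values were seen and held 2965 and 2884 against 365 and 269 and 430.0 and 521 against 41.3 and 68.6 (CD8a against CD11b), differences of 3.22 ± 0.84 and 3.13 ± 0.98. In all 3 genes both CD8a libraries stood well above the CD11b libraries, but Tlr11 was 3.00 (adjusted p = 0.0516) without CD11b library 6, and Tlr12 lost its call without any one library, from 3.49 (adjusted p = 0.0514) without library 6 to 2.77 (adjusted p = 0.129) without library 5. Tlr7, the endosomal sensor of single-stranded RNA, went the other way at 164 and 183 in the CD8a libraries and 773 and 725 in the CD11b libraries (-2.10 ± 0.22), and Tlr9, the sensor of unmethylated DNA, was low in both subsets and not called (-1.08 ± 0.57).

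The sensors called lower included genes of cytosolic sensing. Ddx58, encoding the RNA sensor RIG-I, held 107 and 156 in the CD8a libraries and 542 and 759 in the CD11b libraries, a difference of -2.30 ± 0.25 (adjusted p = 2.84e-07). STING, the adaptor of cytosolic DNA sensing listed as Tmem173, held 586 and 585 in the CD8a libraries and 1571 and 1408 in the CD11b libraries, a difference of -1.34 ± 0.14. The inflammasome genes Casp1 and Nlrc4 differed by -1.27 ± 0.16 and -2.31 ± 0.28, and the bacterial peptidoglycan sensor Nod1 by -1.41 ± 0.24; these 3 were chosen after their values were seen. All were also called lower in KO spleen. Cd14 and Tlr4, which together sense lipopolysaccharide, were called higher in WT, at 2.20 ± 0.26 and 1.21 ± 0.29. In KO they differed by -0.07 and -1.41, and without CD8a library 2 the WT value of Tlr4 was 0.40 (adjusted p = 0.159).

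Of 30 tested interferon-stimulated genes 15 were called lower in CD8a cells and 2 higher, with a median of -0.94, and 12 to 16 were lower without any 1 WT spleen library. In KO spleen 21 were called lower, against a background of 11.7%, and 1 higher. Oasl2, an oligoadenylate synthetase-like protein, held 66 and 30.4 in the CD8a libraries and 455 and 764 in the CD11b libraries, a difference of -3.69 ± 0.38 (adjusted p = 1.28e-07). Oas1a, a synthetase that activates RNase L, held 58.2 and 96.3 in the CD8a libraries and 297 and 431 in the CD11b libraries, a difference of -2.24 ± 0.23. Ifitm3, which blocks entry of viruses at endosomes, held 981 and 1244 in the CD8a libraries and 3799 and 4503 in the CD11b libraries, a difference of -1.90 ± 0.21. Both CD11b libraries were above both CD8a libraries for these 3 genes. Of the factors that drive the response, Stat2, at -0.32 ± 0.24, and Irf7, at -0.05 ± 0.33, were not called. Bst2, a tether of budding viruses, was one of the 2 genes called higher, at 535 and 549 in the CD8a libraries and 231 and 317 in the CD11b libraries (1.00 ± 0.18). Bst2 is also on the plasmacytoid DC list given below, of which 6 of 13 were called higher and 1 lower. The part of such cells in its difference was not tested. Trim30a was the other gene called higher, at 0.87 ± 0.21. It was at 0.63 without CD8a library 2 and 0.73 without CD11b library 5, and not called in either.

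The windows of 3 interferon-stimulated genes are shown because their levels went opposite ways: Ifit1, an RNA-binding effector that differed by -3.36 ± 0.58, and Oas1a were lower in CD8a cells and Bst2 higher. Capitals mark the core of the interferon-stimulated response element (GAAA and GAAA with any 2 bases between them) on either strand with overlaps merged, in the 250 bases before the start (RefSeq, GRCm38.p6, 5′ to 3′ on the gene's strand). The windows span chr19:34640639-34640888, chr5:120907526-120907775 and chr8:71537473-71537722.
Ifit1: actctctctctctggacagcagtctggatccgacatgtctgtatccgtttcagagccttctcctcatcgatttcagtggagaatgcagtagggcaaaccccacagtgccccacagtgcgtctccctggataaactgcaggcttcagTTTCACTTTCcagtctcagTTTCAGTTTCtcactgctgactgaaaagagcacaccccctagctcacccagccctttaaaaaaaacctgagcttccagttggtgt
Oas1a: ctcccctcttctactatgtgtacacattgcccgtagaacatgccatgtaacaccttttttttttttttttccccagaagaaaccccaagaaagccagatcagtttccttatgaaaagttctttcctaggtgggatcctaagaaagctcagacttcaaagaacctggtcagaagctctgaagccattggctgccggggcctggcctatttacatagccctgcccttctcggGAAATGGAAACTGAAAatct
Bst2: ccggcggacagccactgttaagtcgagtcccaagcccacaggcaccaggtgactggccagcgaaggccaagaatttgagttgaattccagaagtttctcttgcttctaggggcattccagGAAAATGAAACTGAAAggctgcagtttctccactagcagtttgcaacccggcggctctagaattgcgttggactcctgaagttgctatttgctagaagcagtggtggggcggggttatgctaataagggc
The matches lie 104 and 85 bases before the start in Ifit1, 20 and 14 in Oas1a and 130 and 124 in Bst2, and the last 2 pairs overlap. Shares were again counted over the longer windows, which also take in bases after the start. The motif was in 7 of 14 such windows (50%) of the list's genes called lower. The motif was in 9 of 14 (64.3%) of those called higher or not called. It was in 3.03% of windows of all genes called higher, 5.05% of those called lower and 3.22% of those tested.

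C-type lectin receptors, which bind carbohydrates of microbes and of dying cells, separated the subsets in both directions: of 28 tested, 10 were called higher and 13 lower. Beside Cd207 and Clec9a, the higher members included Mrc1, the mannose receptor, at 1097 and 1658 in the CD8a libraries and 127 and 134 in the CD11b libraries (3.36 ± 0.19); Mrc1 is also a macrophage marker, and it held 81 and 57.6 against 251 and 193 in KO libraries. Among the lower members, Clec7a, the receptor Dectin-1 for fungal glucan, held 561 and 394 in the CD8a libraries and 1771 and 2198 in the CD11b libraries, a difference of -2.07 ± 0.18 (adjusted p = 6.76e-09). Clec4e, the mycobacterial lipid receptor Mincle, was at 0 in both CD8a libraries and at 25.1 and 25.4 in the CD11b libraries, at least 9-fold lower. Cd209d and Cd209a, homologs of human DC-SIGN chosen here after their values were seen, were called in opposite directions, at 2.95 ± 0.58 and -2.34 ± 0.45.

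Receptors that guide DC movement were likewise split, with 9 of 26 called higher and 7 lower. P2ry14, a receptor for UDP-sugars, held 1286 and 1262 in the CD8a libraries and 92.4 and 49.9 in the CD11b libraries, a difference of 4.21 ± 0.42 (adjusted p = 7.28e-08). Ltb4r1, the leukotriene B4 receptor, held 5.14 and 7.1 in the CD8a libraries and 95.1 and 107 in the CD11b libraries, a difference of -3.86 ± 0.37. Neither pair of groups overlapped. Ccr9, the receptor for CCL25, was higher at 2.92 ± 0.64. Cxcr3, the receptor for CXCL9, was chosen after its values were seen and was higher at 3.42 ± 0.88, though 2.85 (adjusted p = 0.0737) without CD11b library 6. Gpr183 (EBI2), the oxysterol receptor that positions cDC2 in the bridging channels, was lower at -1.63 ± 0.32, also chosen after its values were seen. Ccr7, the receptor for migration to T cell zones, was not called (-0.42 ± 0.30).

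Of 30 tested cytokine and chemokine genes 10 were called higher and 9 lower, with 4 higher without CD11b library 5 and 5 lower without CD8a library 2. Cxcl9, which attracts activated T cells through CXCR3, held 964 and 1103 in the CD8a libraries and 87.9 and 115 in the CD11b libraries, a difference of 3.34 ± 0.53 (adjusted p = 3.83e-05). Il12b, the shared subunit of interleukins 12 and 23, held 514 and 237 in the CD8a libraries and 66.4 and 80.4 in the CD11b libraries, a difference of 2.24 ± 0.48. CD8a library 1 was well above library 2 in Il12b, and both lay above the CD11b libraries. Il15, which sustains CD8 T and NK cells, held 276 and 283 against 93.3 and 64.3 in WT (CD8a against CD11b; 1.84 ± 0.25) and 128 and 149 against 81.3 and 117 in KO libraries. On the CD11b side, Ccl9 and Ccl3, chemokines for myeloid cells, differed by -4.61 ± 0.34 and -3.51 ± 0.37, and Osm, oncostatin M, by -3.31 ± 0.33.

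Among 34 tested cytokine and growth factor receptors 13 were called lower in CD8a cells and 5 higher, and the higher count was 3 without any one of the 4 libraries. Il2rg, the common gamma chain of several interleukin receptors, held 2426 and 1617 in the CD8a libraries and 7078 and 7882 in the CD11b libraries, a difference of -1.91 ± 0.15 (adjusted p = 1.72e-09). Il21r, the receptor for interleukin 21, held 365 and 336 in the CD8a libraries and 1843 and 2134 in the CD11b libraries, a difference of -2.50 ± 0.33. Tnfrsf1b, a TNF receptor, and Il17ra, the interleukin 17 receptor, were lower at -1.11 ± 0.13 and -1.05 ± 0.16. On the CD8a side, Csf2ra, the alpha chain of the GM-CSF receptor, was higher by 0.47 ± 0.09, and Il15ra, which presents interleukin 15 in trans, by 1.18 ± 0.25.

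Costimulatory and coinhibitory genes were divided 8 higher and 8 lower of 26 tested, with 5 higher without CD8a library 1. Cd86, a ligand of CD28, held 4832 and 4762 in the CD8a libraries and 1529.8 and 1394 in the CD11b libraries, a difference of 1.72 ± 0.16 (adjusted p = 3.31e-08). Cd274 (PD-L1), a ligand of PD-1, held 857 and 576 in the CD8a libraries and 3428 and 2817 in the CD11b libraries, a difference of -2.14 ± 0.20 (adjusted p = 1.98e-08). The other PD-1 ligand, Pdcd1lg2 (PD-L2), held 26.6 and 5.07 in the CD8a libraries and 196 and 333 in the CD11b libraries, a difference of -4.31 ± 0.49. Both PD-1 ligands were thus on the CD11b side and Cd86 on the CD8a side, with no overlap. Btla, a coinhibitory receptor used as a cDC1 marker, was higher at 2.14 ± 0.31, and Havcr2 (TIM-3) at 0.83 ± 0.12. Cd80 and Cd40, which are induced on maturation, were not called (-0.69 ± 0.34 and -0.38 ± 0.27).

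Of 18 tested leukocyte integrins 9 were called higher and 3 (Itgam, Itgax and Itgb2) lower. Itga8, an alpha chain that binds RGD motifs and was chosen after its values were seen, held 542 and 890.0 in the CD8a libraries and 60.1 and 53.3 in the CD11b libraries, a difference of 3.59 ± 0.73, and Itga1, a collagen receptor chain chosen likewise, differed by 3.82 ± 0.72. Itgad (CD11d) and Itgb5 followed the macrophage list, at 547 and 1072 against 92.4 and 128 and 264 and 574 against 59.2 and 135 in WT (CD8a against CD11b) and 189.9 and 285 against 690.4 and 749 and 41.9 and 27.6 against 199 and 122 in KO libraries.

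Genes for uptake of dead cells were the function list with the largest share called higher, 15 of 23, with 5 lower. In KO spleen 5 were called higher and 10 lower, with a median of -0.84 against 0.72 in WT, and the CD8a minus CD11b difference of 9 members was called larger in WT than in KO, as it was for most red pulp macrophage markers. Without any 1 WT spleen library the higher count was 11 to 13. Cd36, a scavenger receptor of cDC1, held 4194 and 4249 in the CD8a libraries and 401 and 243 in the CD11b libraries, a difference of 3.75 ± 0.24, and differed by 3.99 in KO. Axl and Mertk, kinases that bind phosphatidylserine through bridging proteins, held 1699 and 3728 against 336 and 466 and 606 and 911 against 19.7 and 67.7 in WT (CD8a against CD11b), differences of 2.66 ± 0.27 and 4.30 ± 0.45. In KO libraries they held 189 and 162 against 796 and 777 and 32.6 and 14.4 against 72.1 and 67, on the CD11b side. Cd300lf and Tgm2, an inhibitory lipid receptor and a transglutaminase that aids engulfment, were lower in CD8a cells, at -2.45 ± 0.20 and -2.74 ± 0.22.

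The next 3 lists also had more members called lower in KO spleen than in WT. Fc receptors and complement had 7 of 20 higher and 4 lower in WT and 1 higher and 13 lower in KO; without CD11b library 6 the WT lower count was 2. Heme and iron genes had 10 of 25 higher and 5 lower in WT and 1 and 10 in KO, with 3 lower in WT without CD11b library 6. Lipid handling genes had 14 of 33 higher and 5 lower in WT and 6 and 10 in KO. The C1q chains, Slc40a1 (the iron exporter ferroportin) and Lpl (lipoprotein lipase) were among the members whose subset difference was called different between genotypes.

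Other members of those lists were higher in both genotypes, unlike most of the macrophage list. Fcgrt, the neonatal Fc receptor that recycles IgG, held 1585 and 2047 in the CD8a libraries and 522 and 637 in the CD11b libraries, a difference of 1.64 ± 0.15, and differed by 1.12 in KO. Slc11a1 (NRAMP1), a metal transporter of phagosomes that is itself on the macrophage list, differed by 2.74 ± 0.29 and 1.85. Plin2, which coats lipid droplets, held 1643 and 2203 in the CD8a libraries and 227 and 362 in the CD11b libraries and differed by 2.73 ± 0.20 and 1.83. All 3 were called in both genotypes.

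Lysosomal genes were called higher in CD8a cells for 15 of 42 and lower for 7 (in KO 7 and 19). Naaa, an acid amidase that cleaves palmitoylethanolamide, held 11336 and 12260.5 in the CD8a libraries and 908 and 701 in the CD11b libraries, a difference of 3.88 ± 0.16 (adjusted p = 3.33e-14). Gusb, beta-glucuronidase, held 5895 and 6854 in the CD8a libraries and 1019 and 1028 in the CD11b libraries, a difference of 2.63 ± 0.13, and Fuca1, a fucosidase, differed by 1.88 ± 0.11. Each stood above both CD11b libraries and was called in the same direction in KO. On the CD11b side, Ctsa and Ctsh, a carboxypeptidase and an aminopeptidase, differed by -1.31 ± 0.12 and -0.71 ± 0.11, and Tfeb, the transcription factor of lysosomal genes, by -1.15 ± 0.16.

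**Figure D4:**
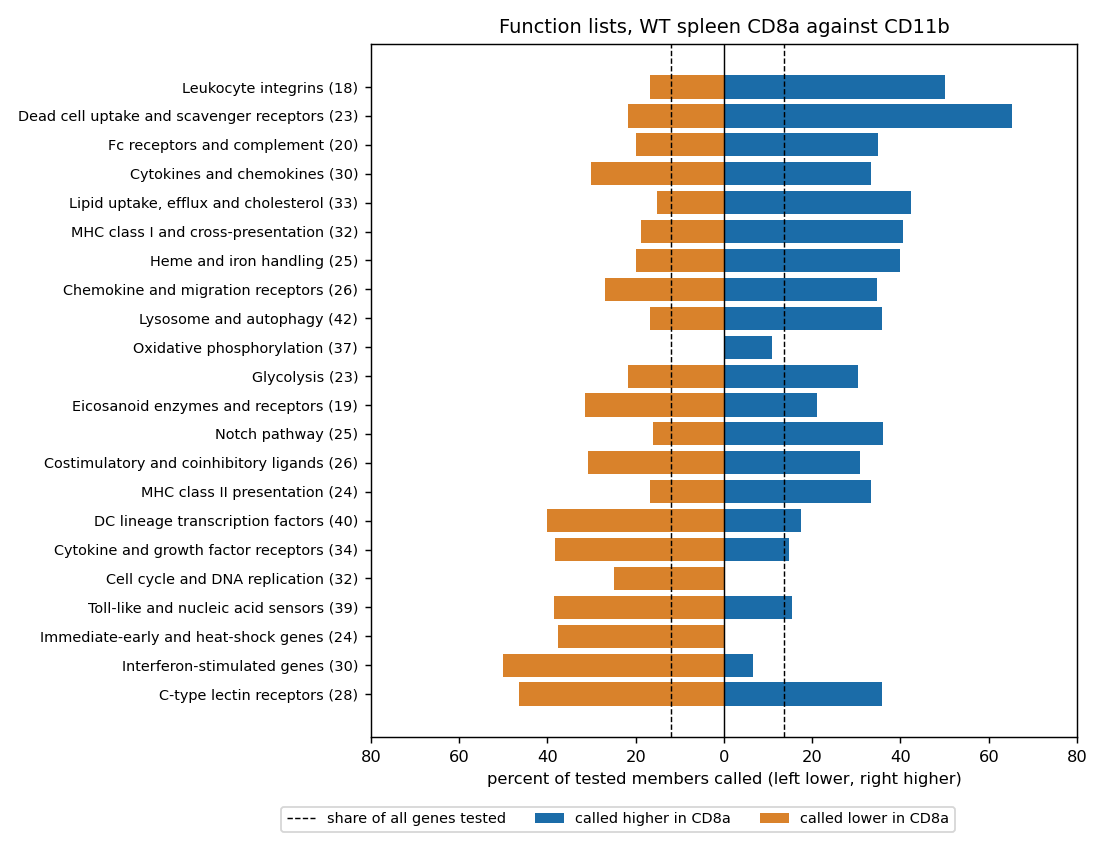
For each function list (tested members in brackets), the percent of tested members called higher in WT CD8a cells (blue, right) and lower (orange, left). Dashed lines mark the background shares of all genes tested, 13.7% higher and 12.1% lower; dead cell uptake reaches farthest right and interferon-stimulated genes farthest left.

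Among glycolytic genes, Hk3, a hexokinase of myeloid cells, held 1042 and 1226 in the CD8a libraries and 76.3 and 92.3 in the CD11b libraries, a difference of 3.74 ± 0.19 (adjusted p = 1.04e-12), and Hk1, the widespread hexokinase, was called lower at -0.85 ± 0.26. Hk1 was lost as a call without CD8a library 1, at -0.66 (adjusted p = 0.161), and without CD11b library 6, at -0.73 (adjusted p = 0.131). Ldha, lactate dehydrogenase A, was higher at 0.70 ± 0.12, and Slc2a3 and Slc16a3, the glucose and lactate transporters GLUT3 and MCT4, were lower at -1.97 ± 0.44 and -3.09 ± 0.27. In all 7 of 23 were called higher and 5 lower, the latter 3 without CD8a library 1 or CD11b library 6. Of 37 oxidative phosphorylation genes 4 were called higher, a share below the background of 13.7%, and 1 without CD11b library 5. The called members included Cycs, cytochrome c, at 0.70 ± 0.13.

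Cell cycle genes were called lower for 8 of 32 and higher for none, and 2 were lower without CD11b library 6. Ccnd1, cyclin D1, held 936 and 836 in the CD8a libraries and 2065 and 3095 in the CD11b libraries, a difference of -1.51 ± 0.29. Immediate-early and heat-shock genes, which respond quickly to stimulation, stress or tissue handling, were called lower for 9 of 24, and 1 was without CD11b library 5. Egr2, an immediate-early transcription factor, held 169 and 297 in the CD8a libraries and 545 and 638 in the CD11b libraries, a difference of -1.39 ± 0.25. The CD11b libraries were higher for both genes. Among 19 eicosanoid genes, Ptgs2 (cyclooxygenase 2) held 458 and 241 in the CD8a libraries and 3258 and 2285 in the CD11b libraries, a difference of -3.03 ± 0.45, and Lta4h, which makes leukotriene B4, differed by -1.24 ± 0.13. Tbxas1, thromboxane synthase, was higher in CD8a cells, at 423 and 519 in the CD8a libraries and 118 and 88 in the CD11b libraries (2.19 ± 0.21).

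Markers of other cells that a spleen sort could hold were given the same count. Of 14 monocyte markers 4 were called higher and 6 lower; Ace, a marker of patrolling monocytes, held 13.7 and 15.2 in the CD8a libraries and 427 and 364 in the CD11b libraries (-4.68 ± 0.46). Of 13 plasmacytoid DC markers 6 were called higher and 1 lower, with 2 higher without CD11b library 6. Siglech, a defining plasmacytoid DC receptor, held 657 and 445 in the CD8a libraries and 58.3 and 53.3 in the CD11b libraries (3.25 ± 0.92); it was 2.97 (adjusted p = 0.0719) without CD8a library 1 and 3.19 (adjusted p = 0.0587) without CD11b library 6. Of 5 marginal zone macrophage markers 4 were called higher, 2 without CD8a library 2, and Cd209b lower. The 12 B cell markers held 1 call in each direction (Fcrla higher and Cd22 lower), with Pax5 under the count minimum, and the 12 T cell markers held 1 (Cd8b1). Gzma was the only NK marker called. It was at 0 in both CD8a libraries and 19.7 and 67.7 in the CD11b libraries, at least 15.6-fold lower in CD8a cells. In KO libraries Gzma held 85.6 and 21.6 against 71.0 and 3.89 (CD8a against CD11b) and was not called. Its WT minus KO difference of -6.48 ± 1.75 was called (limma adjusted p = 0.0452), and its KO values differed widely within each subset. The 3 neutrophil markers tested were all called lower in CD8a cells, and 8 others were under the count minimum. S100a8 and Ngp passed that minimum only through the CD11b libraries, so their direction was fixed by it. Ngp held 0 and 4.05 against 12.6 and 38.1 (CD8a against CD11b). Its difference of -3.36 ± 1.06 was -2.19 without CD8a library 1 and -2.59 without CD11b library 6, and not called in either. Of 4 erythroid markers tested, 1 was called higher and 1 lower. The erythroid list summed to 936 and 3068 in the CD8a libraries and 1580 and 1738 in the CD11b libraries. No basophil or mast cell marker passed the count minimum. The part of these cells in the results was not tested.

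The KO libraries carry the same sort labels and share no library with the WT contrast, so they show the same genes in other samples. There 2719 genes (23.3%) were called, 1347 higher and 1372 lower. Of the 1600 genes called higher in WT, 1360 had the same sign in KO, 925 were called higher and 67 were called lower. Of the 1418 called lower in WT, 1339 had the same sign, 858 were called lower and 1 was called higher. The test of the difference between genotypes called 315 genes (2.7%): 294 (2.52%) with a larger CD8a minus CD11b difference in WT and 21 (0.18%) with a smaller one. Of the 294, 172 were called higher in WT CD8a cells and 189 lower in KO CD8a cells. The red pulp list contributed 23 of its 26 tested members, and the cDC1 list none. Transcripts of the Y chromosome also differed with genotype: Ddx3y, Kdm5d, Uty and Eif2s3y summed to no more than 0.857 in any of the 4 WT libraries and to 977 and 3049 in KO CD8a libraries 3 and 4 and 932 and 3295 in KO CD11b libraries 7 and 8. Xist, the transcript of the inactive X chromosome, held 4366 to 5608 in the WT libraries, 3620 and 12 in KO CD8a libraries 3 and 4 and 3092 and 21.4 in KO CD11b libraries 7 and 8. Libraries 3 and 7 were thus alike in both measures, as were 4 and 8; no label ties a CD8a library to a CD11b library, and a shared source was not tested. Sex-linked transcripts thus differed between WT and KO libraries and also within each KO pair, whereas the 4 WT libraries were alike in them. Where WT and KO values are set side by side, sex and genotype cannot be fully told apart.

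**Figure D5:**
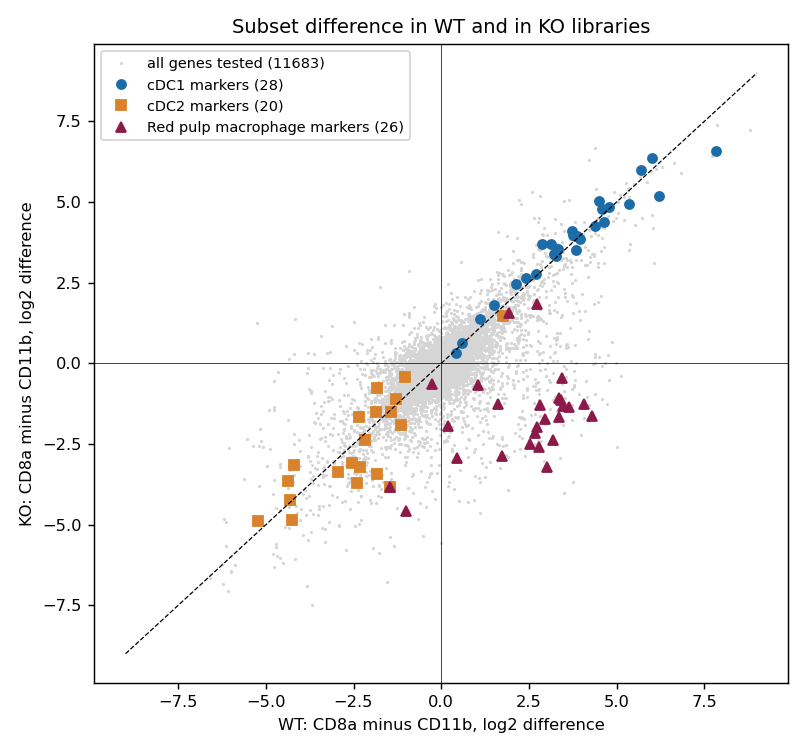
CD8a minus CD11b log2 difference of each tested gene in WT (horizontal axis) against KO spleen (vertical axis), with cDC1, cDC2 and red pulp macrophage markers coloured and a dashed line where both differences are equal. The cDC1 markers lie at the upper right, cDC2 markers at the lower left, and most red pulp macrophage markers at the lower right, higher in WT CD8a cells and lower in KO CD8a cells.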

How the data were processed

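RNA-seq of sorted APC subsets was deposited by the authors as 1 table of DESeq2-normalized read counts (a signal, not raw counts) for 23420 gene symbols in 26 libraries. Per the labels' protocols, total RNA was amplified with a Clontech kit and made into libraries with Illumina Nextera XT; the submitters' processing notes name STAR 2.3.1s, HTSeq, DESeq2 1.10.1 and mm10. The annotation and any strand setting are not given in the sources used here, so overlapping and antisense genes cannot be told apart. Dividing the deposited values by each library's smallest value above 0 gave whole reads for 100% of values (tolerance 1e-06 reads).

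Genes with a normalized count of at least 10 in at least 2 of the 4 WT spleen libraries were tested with limma 3.58.1 (R 4.3.3) on log2(normalized count + 1), with the 10 groups of all 26 libraries sharing the spread (16 residual degrees of freedom) and a mean-variance trend; tests were two-sided and Benjamini-Hochberg adjusted over 11683 genes. Fold changes on this scale understate the change of low genes. edgeR 4.0.16 and DESeq2 1.42.0 were run on recovered reads of 25 libraries as alternatives; library 23, of another group, was left out since that value did not separate normalized from raw counts. The model was tested on simulated data. KO contrasts used the same fit.

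The genes named are 25 fixed ones and the 12 largest log2 differences in each direction with no overlap and a mean of at least 50. They also include the 6 largest count differences in each direction. Up to 4 called members with the smallest p in each direction of each of 35 lists were named too. Others were chosen after their values were seen, with Tbx21, Ctsl and Slc40a1 among them. 2 list members are not reported here by name but stay in the counts. Members and lists were chosen with earlier results of these data known. Positions are from GENCODE M21 (GRCm38), promoter windows from RefSeq (GRCm38.p6), found for 9256 of the 11683 genes. Floors cover counting error only, and reads carry no molecular identifiers.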

Additional observations from a re-analysis of the deposited data

Results flagged for a closer look

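The interaction test in limma called genes whose CD8a minus CD11b difference was not the same in WT and KO spleen. There were 294 with a larger difference in WT and 21 with a smaller one (Benjamini-Hochberg adjusted p under 0.05). Among the genes named whatever their values, 6 were called. The WT minus KO value was 2.37 for Sirpa (adjusted p = 4.48e-07) and 1.49 for Zeb2 (adjusted p = 0.000182), both lower in CD8a cells in each genotype. It was 3.41 for Csf1r (adjusted p = 5.35e-10), the receptor for macrophage colony-stimulating factor, which held 3777 and 5495 against 3116 and 3509 normalized counts in WT (CD8a against CD11b) and 705 and 869 against 6566 and 5566 in KO. Csf1r was called higher in WT CD8a cells at 0.46 ± 0.15, a call lost without CD8a library 2, at 0.19 (adjusted p = 0.468), and without CD11b library 5, at 0.38 (adjusted p = 0.192). It was 5.04 for Spic (adjusted p = 1.31e-05), 3.89 for Vcam1 (adjusted p = 9.43e-05) and 4.72 for C1qb (adjusted p = 1.33e-06), which are red pulp macrophage transcripts. Y-linked transcripts also separate the WT from the KO libraries, with sums of 977 and 3049 in KO CD8a and 932 and 3295 in KO CD11b libraries. The part of sex in these differences was not tested.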

How the results depend on the processing

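The WT count of called genes was 3018 and stayed within 1.5 times that under every alternative run, from 2143 (without CD11b library 6) to 3463 (the 8 spleen libraries alone); edgeR called 2964 and DESeq2 3134. Leaving out 1 WT spleen library gave 1167 to 1268 genes higher and 946 to 1156 lower. The KO count of 2719 moved to 4290 with sample weights; the cause was not tested. Leaving out 1 KO spleen library, an alternative chosen after seeing the data, gave 1852 to 2066 KO calls, and leaving out any 1 spleen library gave 212 to 362 calls for the WT minus KO difference. The other 89 values of these counts kept within 1.5 times. Of 241 called genes named, 188 kept their call in every alternative that gave them a value (17 or 18 each), 53 lost it in 1 or more and 0 changed sign. Tbx21, Ctsl and Slc40a1 are not among the 241. No paired analysis was possible because no label ties a CD8a library to a CD11b library and the libraries compared share no number (1 and 2 against 5 and 6). Depth of 8482049 to 10139210 reads limits genes near the count minimum: a gene at 0 in a library may hold up to 3 reads by the floor used.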
